A study of Mus musculus with 4 samples.

Results

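The genes described here make serine from glucose carbon, pass its one-carbon unit through folate, and carry small neutral amino acids across the cell membrane. They are 10 of the 28440 genes counted, chosen by name: Phgdh, Psat1 and Psph of serine synthesis, Shmt1, Shmt2, Mthfd1, Mthfd1l and Mthfd2 of the folate cycle, and the carriers Slc1a4 and Slc1a5. Poly-A RNA was sequenced from 4 mammary gland tumours of the genotype MMTV-R26Met, numbered 1 to 4, a model in which MMTV-driven recombination turns on a Rosa26 transgene of the receptor Met in mammary epithelium. All 4 tumours form 1 group, with no normal, treated or control tissue among them, and the labels give neither the age of the mice nor whether the tumours came from separate mice. The question the design allows is therefore how these genes are expressed and how far the tumours differ in them, and p-values measure only the spread between these samples.

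Cells take up serine or build it from 3-phosphoglycerate, an intermediate of glycolysis, in consecutive steps catalysed by Phgdh, Psat1 and Psph. Serine hydroxymethyltransferases then move a carbon of serine onto tetrahydrofolate and leave glycine, and the Mthfd enzymes convert the loaded folate into formate and formyl groups for purines, thymidylate and methionine. PHGDH is known for copy number gains and high expression in a portion of human triple-negative breast cancers, and the mitochondrial enzymes MTHFD2 and SHMT2 for high expression in many dividing tumours.

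Libraries held 35220504 to 42809015 counts, so the least abundant of the 10 genes still had 288 counts in its lowest library. Epithelial markers were abundant in every tumour, with 7 of 8 detected in all 4 (Cldn4 was at 0 in at least 1 tumour) and summed levels of 2537, 3967, 3494 and 4279 CPM in tumours 1 to 4. CPM are counts scaled to a common library size, adjusted between libraries by the TMM method. Tumour 3 stood apart by skeletal muscle genes, with 5 of 6 markers detected in all 4 tumours, Pvalb at 0 in at least 1, and a summed level of 891 CPM against 1.00 to 1.39 CPM elsewhere. It also had the highest sum of adipocyte markers, 91.7 CPM against 8.99 to 34.8 CPM, with 5 of 6 detected in all 4 tumours and Retn at 0 in at least 1. Fibroblast markers, with 7 of 7 detected in all tumours, summed to 2509 to 3742 CPM and were highest in tumour 4.

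All 10 genes passed the filter on low counts. Each was tested in edgeR for a spread over the 4 tumours wider than genes of similar abundance show, with Benjamini-Hochberg adjustment over the 15808 genes tested. Phgdh and Slc1a5 passed at an adjusted p of 0.05, which is 2 of 10 genes, against 3.63% of all genes tested. Both had an unadjusted p under 0.05 and the other 8 did not, against 8.74% of all genes, and DESeq2 marked 0 of the 10 as dispersion outliers, against 0.576%. The highest tumour was over 2-fold above the lowest for 5 of the 10 genes, against 36.1% of all genes tested. The median lowest-to-highest fold was 2.06 for the 10 genes and 1.72 for all genes tested. These counts describe the list and were not tested as a list.

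Phgdh, the dehydrogenase that commits 3-phosphoglycerate to serine synthesis, had the largest SD of log2 CPM of the 10 genes (1.32), with Slc1a5 next (1.29). Phgdh (Entrez gene 236539, chromosome 3, 98313171 to 98339969, GRCm38) was at 92.9, 67.3, 97.0 and 13.9 CPM in tumours 1 to 4, from 3937, 2326, 3709 and 569 counts. Tumours 1, 2 and 3 lay within 1.44-fold of one another, and tumour 4 lay 4.84-fold under the next lowest tumour. The mean was 67.7 ± 38.2 CPM (SD, n = 4), with a lowest-to-highest fold of 6.95 and edgeR adjusted p = 0.0316. Without tumour 4 the call was lost (edgeR adjusted p = 1.00), and it was narrowly missed without tumour 1 (0.0534) or tumour 2 (0.0512). In bulk tissue, fewer cells that express a gene and less RNA per cell cannot be told apart.

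Psat1, the aminotransferase that acts on the product of Phgdh, was highest in the tumour where Phgdh was lowest. Psat1 (Entrez gene 107272, chromosome 19, 15905123 to 15925059) was at 105, 89.3, 92.1 and 148 CPM in tumours 1 to 4, a mean of 109 ± 27.3 CPM (SD, n = 4). It did not pass the test (edgeR adjusted p = 1.00), and its lowest-to-highest fold was 1.66. Psph, the phosphatase of the final step, was at 8.96, 8.33, 13.9 and 8.18 CPM. Tumour 3 was highest and the others lay close together. Psph (Entrez gene 100678, chromosome 5, 129765558 to 129787443) had a mean of 9.83 ± 2.70 CPM (SD, n = 4) and did not pass (edgeR adjusted p = 1.00). It overlaps Cct6a by 88 bases, and the use of strand in the counting is not given in the sources used here.

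**Figure D1:**
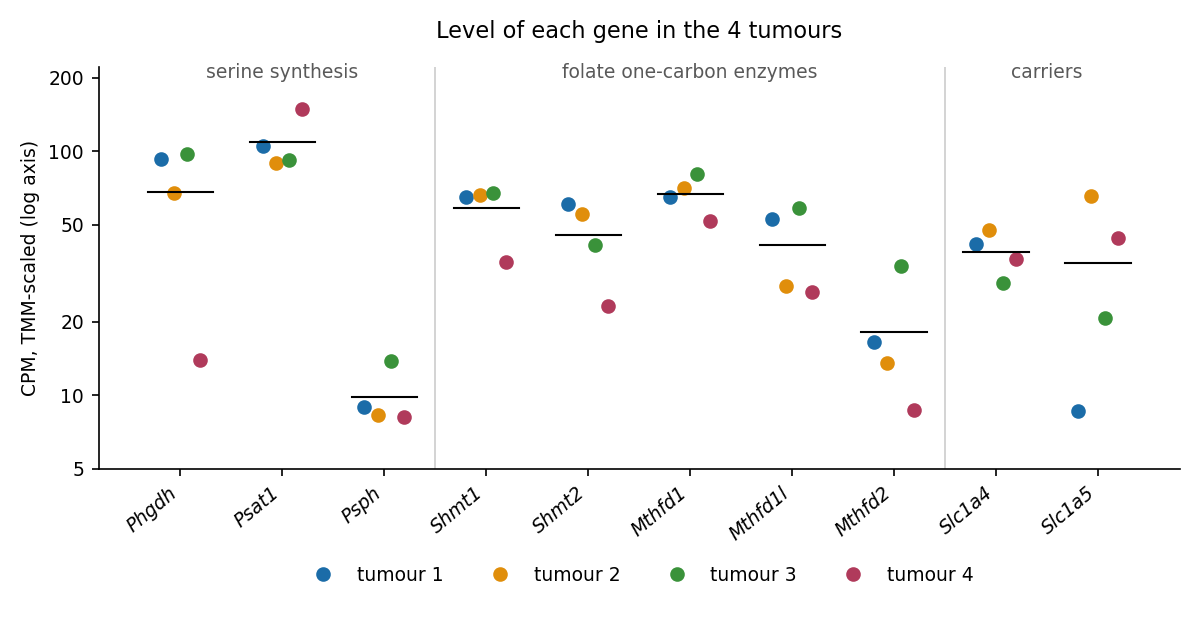
Level of each of the 10 genes in CPM on a log axis, 1 point per tumour (colour) with a black line at the mean of the 4 tumours. Phgdh lies at 13.9 CPM in tumour 4 and at 67.3 CPM or above in the others, Psat1 is highest in tumour 4 at 148 CPM, and Slc1a5 is lowest in tumour 1 at 8.63 CPM.

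The ratio of Psat1 to Phgdh counts within each library shows this contrast without any scaling between libraries. It was 1.13, 1.33 and 0.95 in tumours 1, 2 and 3 and 10.7 in tumour 4. The 95% exact binomial interval for tumour 4 was 9.79 to 11.7, and the highest upper bound among the other tumours was 1.40. The ratio of Psph to Phgdh was 0.0965, 0.124 and 0.143 in tumours 1 to 3 and 0.589 (0.513 to 0.675) in tumour 4. Such intervals cover counting error only. Both ratios use the same Phgdh counts and are not separate observations. Since the ratio of different genes also depends on transcript length, only its differences between tumours are read.

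Promoter sequence is shown for Phgdh and Psat1, the consecutive enzymes at opposite ends of their range in tumour 4. Each line gives the 250 bases before the RefSeq start on GRCm38.p6, 5′ to 3′ on the gene's strand, with matches to CCAAT in capitals. The Phgdh stretch is chr3:98339970-98340219 and the Psat1 stretch chr19:15925060-15925309, both on the minus strand.
Phgdh: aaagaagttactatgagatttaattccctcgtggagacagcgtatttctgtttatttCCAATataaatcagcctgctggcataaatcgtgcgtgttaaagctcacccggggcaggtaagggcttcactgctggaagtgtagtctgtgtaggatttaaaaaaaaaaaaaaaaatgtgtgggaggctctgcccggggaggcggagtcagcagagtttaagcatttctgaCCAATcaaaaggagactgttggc
Psat1: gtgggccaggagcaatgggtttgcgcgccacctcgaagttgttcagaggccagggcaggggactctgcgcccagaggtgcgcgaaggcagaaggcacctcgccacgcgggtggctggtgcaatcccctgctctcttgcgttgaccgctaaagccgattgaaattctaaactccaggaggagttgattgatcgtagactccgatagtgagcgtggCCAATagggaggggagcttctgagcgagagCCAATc
Both stretches hold a pair of CCAAT matches, the nearer ones starting 23 bases before the start in Phgdh and 6 bases before it in Psat1. The 9 genes that had a window had 10 windows of 300 bases, searched on both strands. CCAAT was present in 7 of these 10, against 37.4% of 32851 windows. This motif was chosen after the windows had been examined. The motif TGATGNAA is known as an amino acid response sequence bound by ATF4 with C/EBP proteins. It was found in 1 of the 10 windows, for Slc1a4, against 3.97% of all windows. The E-box CACGTG was found in 0 of the 10, against 7.15% of all windows. These motifs do not overlap one another in the windows of these genes. A match describes letters in the window only.

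The serine hydroxymethyltransferases of cytosol (Shmt1) and mitochondria (Shmt2) were both lowest in tumour 4. Shmt1 (Entrez gene 20425, chromosome 11, 60788897 to 60811265) was at 64.8, 66.0, 67.1 and 35.1 CPM in tumours 1 to 4. Tumours 1, 2 and 3 differed by 1.04-fold at most. Shmt2 (Entrez gene 108037, chromosome 10, 127517123 to 127522444) was at 61.0, 55.4, 41.4 and 23.2 CPM. Tumour 4 lay 1.85-fold under the next tumour for Shmt1 and 1.78-fold for Shmt2. The means were 58.2 ± 15.5 CPM for Shmt1 and 45.3 ± 16.8 CPM for Shmt2 (SD, n = 4), the lowest-to-highest folds were 1.91 and 2.62, and neither gene passed (edgeR adjusted p = 1.00 for each). Without tumour 4 the folds were 1.04 and 1.47. Shmt2 overlaps Ndufa4l2 by 32 bases, with the same limit on strand as for Psph.

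Within each library the ratio of Shmt2 to Shmt1 counts was 0.941, 0.839, 0.617 and 0.663 in tumours 1 to 4. The exact binomial intervals of tumours 3 (0.579 to 0.657) and 4 (0.610 to 0.720) overlapped each other and lay under those of tumours 1 (0.892 to 0.993) and 2 (0.789 to 0.892). The spread of the ratio over the 4 tumours was 1.53-fold.

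Mthfd1, the cytosolic enzyme that carries 3 folate activities in 1 protein, was the steadiest of the 10 genes. Mthfd1 (Entrez gene 108156, chromosome 12, 76254406 to 76319820) was at 64.8, 70.8, 80.4 and 51.5 CPM in tumours 1 to 4, a mean of 66.9 ± 12.1 CPM (SD, n = 4) and a 1.56-fold range. The mitochondrial partners ranged more widely. Mthfd1l, which releases formate from the mitochondrion, separated tumours 1 and 3 (52.6 and 58.4 CPM) from tumours 2 and 4 (28.1 and 26.5 CPM). Mthfd1l (Entrez gene 270685, chromosome 10, 3972892 to 4167081) had a mean of 41.4 ± 16.5 CPM (SD, n = 4).

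Mthfd2, the mitochondrial dehydrogenase and cyclohydrolase, was at 16.6, 13.6, 33.7 and 8.67 CPM in tumours 1 to 4. Tumour 3 was 2.03-fold above the next tumour and tumour 4 was lowest. Mthfd2 (Entrez gene 17768, chromosome 6, 83305704 to 83326011) had a mean of 18.1 ± 10.9 CPM (SD, n = 4) and a 3.87-fold range. None of Mthfd1, Mthfd1l and Mthfd2 passed the test, with edgeR adjusted p = 1.00 for each and no unadjusted p under 0.05. Mthfd2l, a close relative of Mthfd2 that is not among the 10 genes, lay between 9.17 and 13.5 CPM; its values had been seen when it was named.

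Set against Mthfd1 in the same library, Mthfd2 had a count ratio of 0.256, 0.192, 0.419 and 0.168 in tumours 1 to 4. The interval of tumour 3 (0.393 to 0.448) lay above the other 3, and those of tumours 2 (0.173 to 0.212) and 4 (0.150 to 0.189) overlapped. The ratio of Mthfd1l to Mthfd1 was 0.811, 0.397, 0.727 and 0.514, higher in tumours 1 and 3 than in tumours 2 and 4. It uses the same Mthfd1l counts as the levels above and is not a separate observation. The ratio of Mthfd2 to Mthfd2l was 1.81, 1.17, 2.498 and 0.757 in tumours 1 to 4, highest in tumour 3 and lowest in tumour 4.

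**Figure D2:**
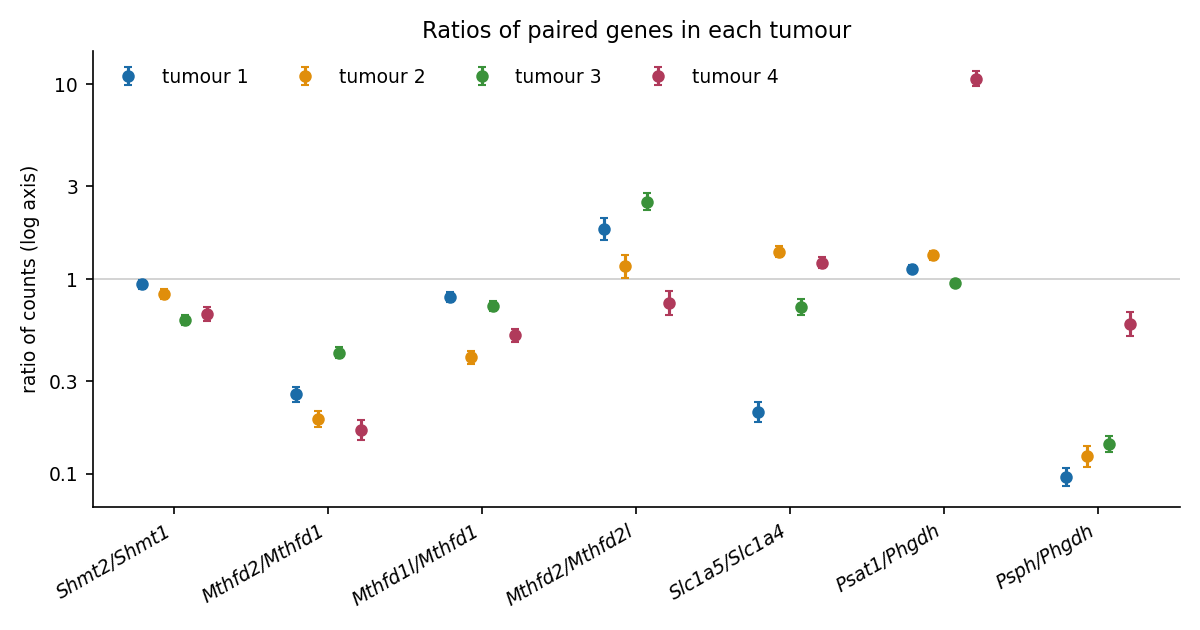
Ratio of the counts of paired genes in each tumour (colour) on a log axis, with 95% exact binomial intervals that cover counting error only. Tumour 4 stands apart in Psat1/Phgdh at 10.7 and in Psph/Phgdh at 0.589, which share the same Phgdh counts. Tumour 1 stands apart in Slc1a5/Slc1a4 at 0.208.

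The carriers did not share the arrangement of the enzymes. Slc1a5, which exchanges glutamine and other neutral amino acids, was the other gene to pass the test. Slc1a5 (Entrez gene 20514, chromosome 7, 16781334 to 16798274) was at 8.63, 65.6, 20.8 and 44.0 CPM in tumours 1 to 4, from 366, 2268, 795 and 1800 counts. Tumours 2 and 4 were high, tumour 3 was lower and tumour 1 was lowest. The mean was 34.7 ± 25.3 CPM (SD, n = 4), with a lowest-to-highest fold of 7.56 and edgeR adjusted p = 0.0342. The call was lost with no count filter (edgeR adjusted p = 0.0514), without tumour 1 (0.93) and without tumour 2 (0.481). Without tumours 1 and 2 in turn the lowest-to-highest folds were 3.15 and 5.01. All 7 tested epithelial markers, 5 of 8 leukocyte markers and 4 of 7 fibroblast markers were also lowest in tumour 1. Over all genes tested, tumour 1 was lowest for 24.8%. The part of these markers' cells in the level of Slc1a5 was not tested.

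Slc1a4, the related carrier of serine, alanine and cysteine, was at 41.5, 47.4, 28.9 and 36.1 CPM, a mean of 38.5 ± 7.89 CPM (SD, n = 4) that did not pass (edgeR adjusted p = 1.00). It was lowest in tumour 3, within a 1.64-fold range. Slc1a4 lies on chromosome 11, 20302180 to 20332713 (Entrez gene 55963). The count ratio of Slc1a5 to Slc1a4 was 0.208, 1.38, 0.719 and 1.22 in tumours 1 to 4, and the intervals of tumours 4 (1.14 to 1.31) and 2 (1.30 to 1.47) overlapped. Slc1a4 was the gene whose window held the amino acid response motif. The 30 bases around it, chr11:20332699-20332728 on the minus strand of GRCm38.p6, are shown with the match, read from the opposite strand, in capitals.
Slc1a4: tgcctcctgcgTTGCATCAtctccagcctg
The match begins 4 bases before the RefSeq start and runs across it.

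Tumour 4 was the lowest tumour for 7 of the 10 genes, namely Phgdh, Psph, Shmt1, Shmt2, Mthfd1, Mthfd1l and Mthfd2, which is 7 of the 8 enzymes. Over all genes tested, tumour 4 was lowest for 27.8%. The median of log2 CPM relative to each gene's mean was -0.46 in tumour 4 over the 10 genes and 0.00 over all genes tested. In tumours 1, 2 and 3 the median over the 10 genes was 0.09, 0.16 and 0.27. Tumour 3 was highest for 6 of the 10 genes, against 29.7% of all genes tested. Of the 7 enzymes lowest in tumour 4, only Phgdh passed the test. For Psph and Mthfd1l tumour 4 lay only 1.02- and 1.06-fold under the next tumour.

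Csn2, the milk protein beta-casein, was at 22.6, 490, 183 and 8476 CPM in tumours 1 to 4 (edgeR adjusted p = 5.56e-18), and was chosen after its values were seen. The sum of endothelial markers, with 6 of 6 detected in all tumours, was 95.9 CPM in tumour 4, below the 120 to 164 CPM of the rest. Of 15 cell division genes, all 15 were highest in tumour 3, against 29.7% of all genes tested. Lowest in tumour 4 were 7 of the 15, against 27.8%, the other 8 being lowest in tumour 2 or tumour 1. Mki67 was at 513, 365, 713 and 399 CPM in tumours 1 to 4 and Top2a at 339, 198, 597 and 187 CPM. In tumours 1 to 4 the median of cell division genes relative to their mean was 0.09, -0.43, 0.77 and -0.37. That of the 10 genes was 0.09, 0.16, 0.27 and -0.46, and that of the 8 enzymes alone 0.13, -0.05, 0.41 and -0.62. None of the 15 cell division genes passed in edgeR, 0 had an unadjusted p under 0.05 and DESeq2 marked 0 as dispersion outliers. The shares over all genes tested were 3.63%, 8.74% and 0.576%. Ranges over 2-fold were found for 10 of the 15, or 66.7%, against 36.1% of all genes tested. The part of milk protein, cell division, endothelial, muscle or adipocyte RNA in the levels of the 10 genes was not tested.

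**Figure D3:**
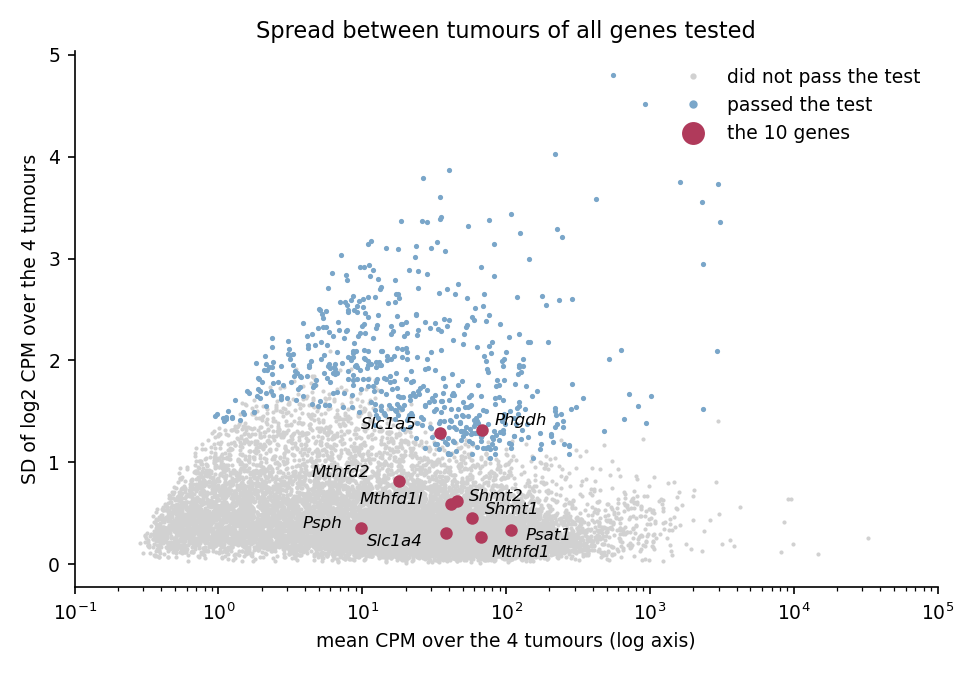
SD of log2 CPM over the 4 tumours against mean CPM (log axis) for all 15808 genes tested, with genes past the test in blue and the 10 genes in red. Phgdh (SD 1.32) and Slc1a5 (SD 1.29) lie among genes that passed, and the other 8 have SDs of 0.27 to 0.81.

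Levels of different genes were compared per kilobase of annotated exon, because longer transcripts give more counts. On that scale Phgdh (27.3 ± 15.4 CPM per kb) and Psat1 (25.5 ± 6.41) were highest, followed by Mthfd1 (15.1 ± 2.72), Shmt1 (14.999 ± 3.99), Shmt2 (14.6 ± 5.41), Slc1a4 (9.80 ± 2.01), Mthfd1l (9.33 ± 3.72), Slc1a5 (8.33 ± 6.05), Mthfd2 (5.20 ± 3.12) and Psph (2.27 ± 0.624), with the SD of 4 tumours after each mean. Only the step from Psat1 to Mthfd1 exceeded the larger SD of the 2 neighbours. With the longest coding transcript as length, Psat1 came first (41.5 ± 10.4 CPM per kb), Phgdh next (35.8 ± 20.2), Psph was again last (5.67 ± 1.56), and no step between neighbours exceeded the larger SD. In tumour 4 alone Phgdh had 5.59 CPM per kb of exon, against 34.9 for Psat1.

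Of 9 tested genes of serine and glycine supply outside the 10, 0 passed in edgeR. In the same list 0 had an unadjusted p under 0.05 and DESeq2 marked 0. The shares over all genes tested were 3.63%, 8.74% and 0.576%. Over 2-fold ranges were found for 3 of the 9, or 33.3%, against 36.1% of all genes tested. The most abundant was Dld, a subunit shared with the glycine cleavage system, at 68.0 to 108 CPM, and the widest spread was that of Sdsl, a serine dehydratase-like gene, at 0.635 to 1.91 CPM. Sfxn1, which carries serine into mitochondria, stayed between 52.2 and 60.8 CPM. Gldc, which breaks glycine down in mitochondria, had 25, 1315, 3 and 1828 counts in tumours 1 to 4. It was too scarce in tumour 3 for the filter and was therefore not among the genes tested. With no count filter it passed (edgeR adjusted p = 3.84e-14). Tumours 2 and 4, at 38.0 and 44.6 CPM, were also those with the most Slc1a5. The serine dehydratase Sds had 0 counts in every tumour, which allows up to 0.0708 to 0.0868 CPM, the level of 3 counts. Gldc, Sfxn1 and Sds were chosen after their values were seen.

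Among 15 tested folate genes outside the 10, 1 passed the test, against 3.63% of all genes tested. In edgeR 4 of the 15 had an unadjusted p under 0.05, against 8.74% of all genes tested. Lowest in tumour 4 were 3 of the 15, and lowest in tumour 3 were 7, against 27.8% and 27.7% of all genes tested. Folr1, the folate receptor, was at 30.8, 36.5, 9.93 and 119 CPM in tumours 1 to 4 (edgeR adjusted p = 0.000905). It was highest in tumour 4, where Phgdh was lowest, and its call was lost without tumour 3 (edgeR adjusted p = 0.0624) or tumour 4 (0.564). The reduced folate carrier Slc19a1 was instead lowest in tumour 4, with 29.8, 18.3, 11.7 and 3.62 CPM, and did not pass (edgeR adjusted p = 0.224). Aldh1l1, the cytosolic enzyme that oxidises formyl-folate, was at 14.3, 7.84, 1.15 and 2.32 CPM (edgeR adjusted p = 0.106). Its mitochondrial relative Aldh1l2 ran from 55.3 CPM in tumour 1 to 16.6 CPM in tumour 4, and did not pass (edgeR adjusted p = 1.00). Thymidylate synthase, Tyms, which uses the folate carbon for DNA synthesis, was at 29.6, 16.4, 59.5 and 18.6 CPM, highest in tumour 3 like Mthfd2 (edgeR adjusted p = 0.538). Slc19a1, Aldh1l2 and Tyms were chosen after their values were seen.

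Folate carbon is used in purine synthesis and in the methionine cycle. Of 13 purine synthesis genes 0 passed in edgeR, with 0 at an unadjusted p under 0.05 and 0 marked by DESeq2. Paics, the most abundant, stayed between 156 and 197 CPM, and Prps1, the most variable, between 8.44 and 20.0 CPM. Tumour 4 was lowest for 6 of the 13 and tumour 3 highest for 7, against 27.8% and 29.7% of all genes tested. Of 11 tested genes of the methionine cycle and transsulfuration 0 passed, again with 0 at an unadjusted p under 0.05 and 0 by DESeq2. The shares over all genes tested were 3.63%, 8.74% and 0.576%. Mat2a, which makes S-adenosylmethionine, was at 182 to 232 CPM, and Cdo1, a cysteine dioxygenase, at 1.76 to 9.03 CPM.

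Of 13 further tested amino acid carriers 1 passed, against 3.63% of all genes tested. In edgeR 2 of the 13 had an unadjusted p under 0.05, against 8.74% of all genes tested. Slc38a1, a sodium-coupled carrier of glutamine and other neutral amino acids, was at 212, 188, 110 and 10.6 CPM in tumours 1 to 4 (edgeR adjusted p = 3.59e-05). Like Phgdh it was far lower in tumour 4 than elsewhere, and the call was lost without that tumour (edgeR adjusted p = 1.00). Its relative Slc38a2, the most abundant carrier of the list, stayed between 425 and 586 CPM. Slc7a5, the large neutral amino acid exchanger that can work together with Slc1a5, was at 115, 179, 431 and 368 CPM and did not pass (edgeR adjusted p = 0.38). It was lowest in tumour 1, as Slc1a5 was, but highest in tumour 3. Slc7a5 was chosen after its values were seen.

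**Figure D4:**
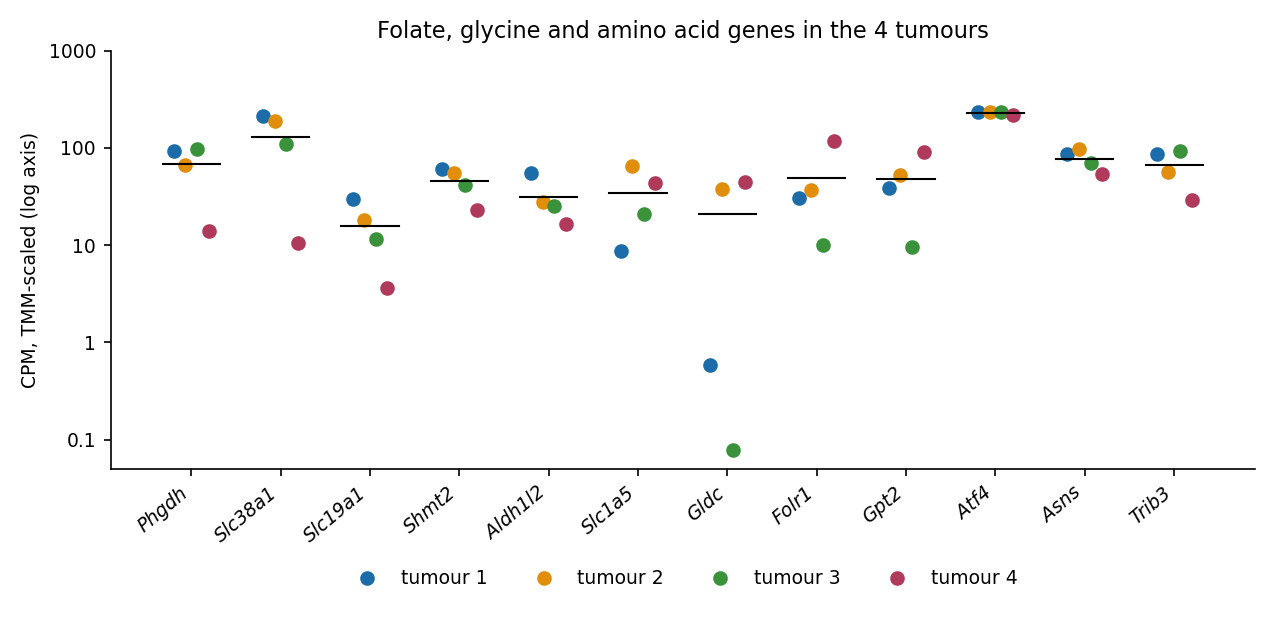
Level in CPM on a log axis of Phgdh, Shmt2, Slc1a5 and genes of the wider lists, 1 point per tumour (colour) with a black line at the mean. Phgdh, Slc38a1 and Slc19a1 are lowest in tumour 4, Gldc and Slc1a5 are highest in tumours 2 and 4, and Atf4 stays between 216 and 235 CPM.

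ATF4 is a transcription factor known to raise genes of serine synthesis and amino acid uptake when amino acids run short. Its RNA and other genes of the amino acid response were therefore listed beside the 10 genes. The list also holds the regulators Eif2ak1, Eif2ak2, Eif2ak3 and Eif2ak4, so its counts are not counts of ATF4 targets alone. Atf4 itself was at 232, 235, 235 and 216 CPM, a 1.09-fold range, which says nothing of its protein, whose level is known to be set mainly by translation. Of 29 genes in this list 1 passed, against 3.63% of all genes tested. In edgeR 3 of the 29 had an unadjusted p under 0.05, against 8.74% of all genes tested. Gpt2, an alanine aminotransferase, was at 38.5, 53.2, 9.51 and 90.7 CPM (edgeR adjusted p = 0.0123), a call lost without tumour 3 (edgeR adjusted p = 1.00) or tumour 4 (0.0858). Asns, asparagine synthetase, was at 87.0, 97.2, 70.1 and 54.6 CPM, and Trib3 at 86.3, 57.0, 92.7 and 29.5 CPM, both lowest in tumour 4 without passing (edgeR adjusted p = 1.00 and 0.843). The synthetase gene Nars, the most abundant of the list, was at 198 to 300 CPM. Tumour 4 was lowest for 10 of the 29 genes and highest for 10, against 27.8% and 28.5% of all genes tested. Atf4, Asns and Trib3 were chosen after their values were seen.

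Phgdh draws its substrate from glycolysis after Gapdh and Pgk1 and before the phosphoglycerate mutases and enolases. Of 8 tested genes around this branch point 0 passed in edgeR, against 3.63% of all genes tested, and DESeq2 marked 0, against 0.576%. Only Eno3 had an unadjusted p under 0.05 in edgeR, which is 1 of 8, against 8.74% of all genes tested. Gapdh ran from 2969 CPM in tumour 3 to 1104 CPM in tumour 4, and Eno3, an enolase of muscle, had 27.3 CPM in tumour 3 against 2.91 to 6.59 CPM elsewhere. Tumour 3 was highest for 7 of the 8, against 29.7% of all genes tested. Tumour 3 was also the tumour with the skeletal muscle markers, whose part in these levels was not tested.

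The genes whose pattern over the 4 tumours was most like that of Phgdh were taken from 7157 genes averaging 5 CPM or more and having an SD of at least 0.25 on the log2 scale. Likeness was the root mean square difference of log2 CPM, each gene centred on its own mean. Rabep1 was nearest (0.07), followed by Mrm1 (0.11), Laptm4b (0.12), Snhg18 (0.12) and Cradd (0.12). Rabep1 was at 152, 119, 174 and 22.2 CPM in tumours 1 to 4. With 4 tumours this names similar profiles only. None of the other 9 genes was among these 5, and within the 10 genes the nearest pair was Psph and Mthfd1 (0.21).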

How the data were processed

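The deposited counts are whole numbers per Entrez gene, 1 column per tumour, left without normalization by the authors. The submitters' processing notes name FastQC and the builds GRCm38 and mm10, with aligner, counting program, annotation and strand setting not given in the sources used here. A symbol was found in RefSeq's GRCm38.p6 table for 24480 of 28440 rows (86.1%), and 0 columns of values were left unused. Library totals for tumours 1 to 4 were 42809015, 35220504, 36885892 and 41756363 counts.

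edgeR 4.0.16 (R 4.3.3) was used with TMM scaling after filterByExpr (count minimum 10, total minimum 15), which kept 15808 genes. Since 1 group allows no contrast, a constant-mean negative binomial model with trended dispersion was fitted to every gene. The residual deviance was referred to chi-square, and p-values were adjusted across all tested genes by Benjamini-Hochberg with a threshold of 0.05. The trended biological coefficient of variation lay between 0.331 and 0.514. The fit was also run on counts simulated from the same model, which cannot show whether that model holds for these tumours. Log2 CPM used a prior count of 2, and lowest-to-highest folds come from log2 CPM. Exon lengths came from GENCODE and promoter windows from RefSeq. Alternatives included RLE scaling, other filters and DESeq2 1.42.0 dispersion outliers.

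The 10 genes and the lists (8 pathway lists with 133 genes, 123 tested, and lists of cell type markers, of which some are not reported here) were chosen with earlier results of these data known. Named by rule were the 10 genes, per list the most abundant and the most variable tested gene, each list gene past the test, and the 5 genes nearest in pattern to Phgdh; others are marked as chosen after their values were seen. Phgdh-ps1, a pseudogene of Phgdh, has no row in the table.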

Additional observations from a re-analysis of the deposited data

Results flagged for a closer look

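Shmt1 in tumour 4 was the 1 value, of 26 genes examined and of the 10 described here, that lay far from the rest of its group. The gap from tumour 4 (35.1 CPM) to the nearest other tumour (64.8 CPM) made up 0.946 of the whole range of log2 CPM, above Dixon's 95% critical value for 4 samples. Chance flags about 5% of such groups. Psph in tumour 3 (0.827) and Phgdh in tumour 4 (0.812) lay under that value.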

How the results depend on the processing

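The number of the 10 genes past the test was 2 under RLE scaling, library size alone, a mean of at least 5 CPM and a dispersion trend by bins of expression, the last chosen after seeing the data. It was 1 with no count filter (Phgdh) and 0 with Holm adjustment, where 2 had an unadjusted p under 0.05 in edgeR. DESeq2 marked 0 as dispersion outliers. With 1 tumour left out it ran from 0 to 2, with 1 or 2 at an unadjusted p under 0.05. Over all genes the number was 574, and 895 with no count filter, 198 with Holm adjustment, 91 by DESeq2 and 367 to 417 with 1 tumour left out. Holm adjustment is stricter by construction; otherwise the cause was not tested. Under these 10 alternatives the adjusted p of edgeR's test was 0.00816 to 1.00 for Phgdh and 0.0111 to 1.00 for Slc1a5, each past the threshold in 6, and at least 0.771 for the other 8 genes. The order of the tumours was the same under all 3 scalings for each of the 10 genes. Of 80 recomputed lowest-to-highest folds, 8 moved beyond the spread between tumours, all with a tumour left out. No paired analysis was possible because the 4 tumours form 1 group.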
